A study of Mus musculus with 6 samples.

Results

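The genes described here are 10 transcription factors that specify the neural crest and govern its migration: Sox8, Sox9, Sox10, Tfap2a, Tfap2b, Snai1, Snai2, Twist1, Ets1 and Zic1. They were chosen by symbol for this role, out of 21006 gene symbols counted, and all 10 were present in the table and passed the filter on low counts. Their RNA was counted in 6 mouse libraries of polyadenylated RNA from branchial arch cells at stage E11.5 (embryonic day), labelled neural crest cells and sorted on TdTomato. In the 3 DKO (double knockout) libraries both Ehmt1 and Ehmt2 were floxed on each allele (Ehmt1f/f and Ehmt2f/f). In the 3 control libraries both genes were unfloxed (Ehmt1+/+ and Ehmt2+/+). The controls and the DKO embryos alike carried the reporter Rosa26 TdTomato/+ and the driver Wnt1-cre, so Cre was present in every library. Wnt1-cre is active in the dorsal neural tube as well as in the crest that leaves it, so cells of neural tube origin can carry the reporter too. The labels name biological replicates without saying how many embryos went into each. The p-values weigh the difference between the groups against the variation between these libraries.

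The neural crest arises at the border of the neural plate, leaves the dorsal neural tube and, in the branchial arches, gives rise to cartilage, bone, connective tissue, sensory neurons, glia and pigment cells. Border genes such as Zic1 and the AP-2 factors Tfap2a and Tfap2b act early. The SoxE genes Sox8, Sox9 and Sox10, the Snail genes Snai1 and Snai2, Twist1 and Ets1 then specify crest cells and act in their departure from the neural tube, their migration and their later fates. Ehmt1 and Ehmt2 encode GLP and G9a, partner enzymes that place mono- and dimethylation on lysine 9 of histone H3, a mark of repressed chromatin. In human breast cancer cells, G9a is recruited by SNAI1 to the E-cadherin gene.

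Library totals ran from 23414466 to 44538260 counts, and 14555 genes were tested. Levels are CPM (counts relative to the library total after TMM scaling), and differences are log2 fold changes of DKO over control. Ehmt1 stood at 148 ± 18.2 CPM in DKO against 259 ± 8.92 CPM in controls, and Ehmt2 at 127.7 ± 11.3 and 354.8 ± 7.13 CPM (SD, n = 3 each); both fell and neither overlapped between groups (edgeR adjusted p = 0.00476 and 0.000208). Counts are given per gene symbol, so transcripts that lack the floxed exons may still count. The source of the remaining RNA was not tested. Summed over 17 mesenchymal genes, the level was 4431 to 5744 CPM in all libraries, against 18.0 to 30.49 CPM for 9 epithelial markers.

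None of the 10 specifiers was called at an adjusted p below 0.05 in either direction (edgeR quasi-likelihood test). Over all tested genes 3.01% were called, and 0.818% were called lower in DKO. The 2 genes nearest the threshold were Snai1 and Tfap2a, with DKO means 0.657 and 0.672 times those of controls and no overlap between the groups. Groups did not overlap for 27.2% of all tested genes, with DKO the lower group for 12.7%, so 2 of 10 specifiers lower without overlap is not far from the background. The same 2 specifiers, both lower in DKO, had an unadjusted edgeR p below 0.05. Of all tested genes 20.9% did so in either direction, and 9.89% with DKO lower.

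The median log2 fold change of the 10 specifiers was -0.21, and 8 of the 10 values were negative. Over all tested genes the median was -0.01 and 51.2% of values were negative. Among the 8254 genes at or above the mean level of the lowest specifier, Sox8, the median was -0.05 and 62.2% were negative. For 9 of the 10 specifiers, the 95% confidence interval of the fold excluded a 2-fold change in either direction; Zic1 was the exception. RNA was taken from sorted populations in bulk, so fewer cells that express a gene and less RNA of it per cell cannot be told apart.

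**Figure D1:**
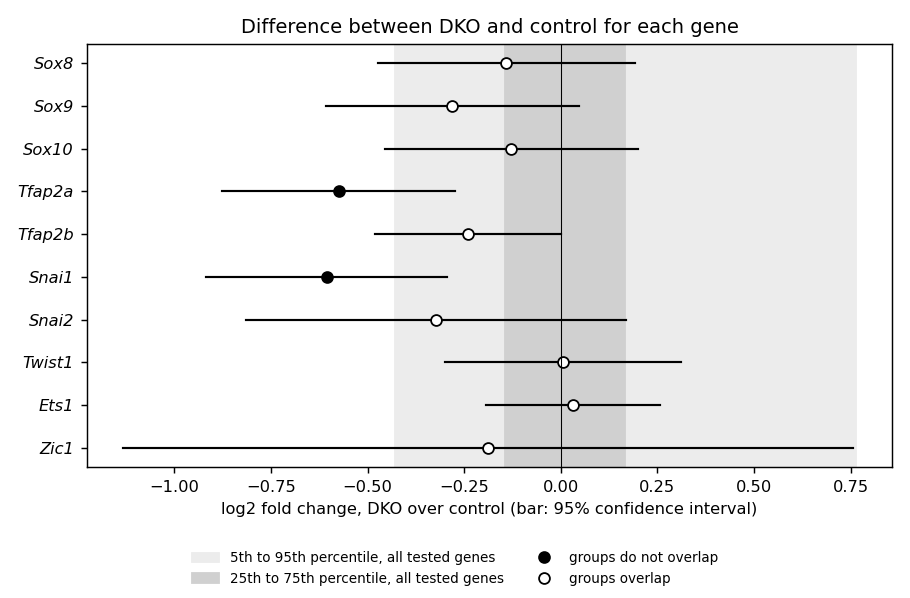
Log2 fold change of DKO over control for each specifier, with bars for the 95% confidence interval; filled points are genes whose groups do not overlap, and shaded bands show the central ranges of all tested genes. Snai1 (-0.61) and Tfap2a (-0.57) lie below the 5th percentile of all tested genes (-0.43), and the interval of Zic1 is the widest.

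Levels can be set side by side once divided by the length of a gene's merged exons, as CPM per kb. In control libraries Twist1 was the highest, at 209.5 ± 16.6 CPM per kb, followed by Snai1 at 87.6 ± 12.8 (SD, n = 3 each). These 2 genes lay above 99.48% and 97.37% of tested genes with a length. A middle set followed, of Sox9 (33.1 ± 0.879), Snai2 (29.2 ± 6.54), Sox10 (25.6 ± 4.74) and Tfap2b (22.1 ± 2.02), in which each gene overlapped the next in its range over the 3 control libraries. Zic1 (13.5 ± 3.83) and Tfap2a (11.6 ± 1.67) overlapped each other, and so did Sox8 (7.82 ± 1.49) and Ets1 (7.55 ± 0.577), the lowest pair. Neighbours in this order were separated with no overlap at Twist1 and Snai1, Snai1 and Sox9, Tfap2b and Zic1, and Tfap2a and Sox8. The highest mean was 27.7 times the lowest. In DKO the order was the same except that Sox10 and Snai2 changed places, as did Ets1 and Sox8, and each of these pairs already overlapped in control libraries.

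**Figure D2:**
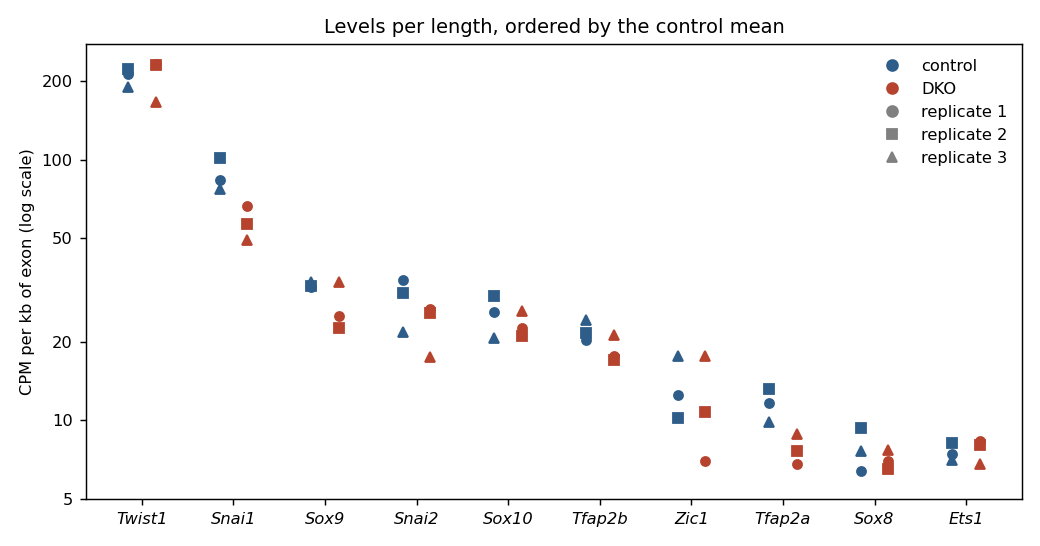
CPM per kb of exon on a log scale for the 10 specifiers in each of the 6 libraries, ordered by the control mean; colour marks the group and shape the replicate. Twist1 and Snai1 stand above the rest in both groups, and Sox8 and Ets1 are lowest.

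The SoxE genes encode related HMG-box factors. Sox9 acts in crest survival and switches on cartilage genes, Sox10 maintains crest progenitors and drives glial and pigment cell fates, and Sox8 overlaps with both in function. Sox9 (chromosome 11, 112782210 to 112787757; all positions on GRCm38.p6) stood at 103.7, 93.5 and 141.1 CPM in DKO libraries 1 to 3, and at 134.2, 135.7 and 141.1 CPM in control libraries 1 to 3. DKO libraries 1 and 2 were below every control, while DKO 3 was level with control 3. The log2 fold change was -0.28 (SE 0.14, 95% confidence interval -0.61 to 0.05, edgeR adjusted p = 0.298). The spread of Sox9 was 22.2% of the mean in DKO and 2.65% in control libraries. Without DKO replicate 3 the value was -0.48 and Sox9 was called lower (edgeR adjusted p = 0.0155), in a fit that called 3.49% of all tested genes lower.

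Sox10 (chromosome 15, 79154913 to 79164490) stood at 69.2, 64.5 and 80.6 CPM in DKO and at 79.4, 91.9 and 63.1 CPM in control libraries. The lowest and the highest values were both controls. The difference was -0.13 on the log2 scale (SE 0.14; edgeR, adjusted p = 0.648). Sox8 (chromosome 17, 25565893 to 25570686) stood at 21.9, 20.3 and 24.0 CPM in DKO against 20.02, 29.3 and 23.9 CPM in controls, with the groups interleaved. Its log2 fold change came to -0.14 (SE 0.15, edgeR adjusted p = 0.618). An antisense gene, 2810468N07Rik, shares 329 bp or 10.6% of the exon length of Sox8, and the strand setting of the counting is not given in the sources used here. As shares of the summed SoxE level per kb, Sox9 held 46.9% in DKO and 50% in control libraries, Sox10 held 40.7% and 38.3%, and Sox8 held 12.3% and 11.7% (means of 3 libraries).

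**Figure D3:**
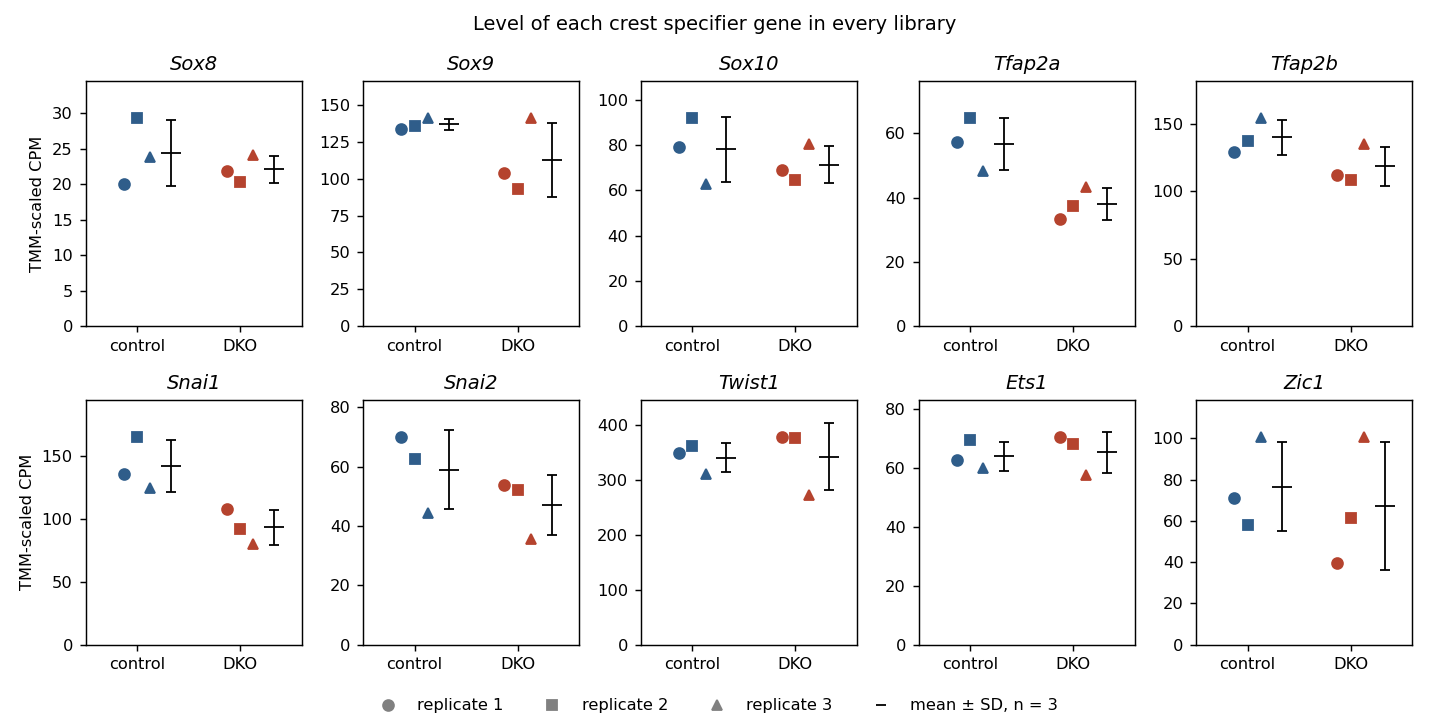
TMM-scaled CPM of each specifier in every library, 1 panel per gene with its own axis from 0; points are replicates and bars show the mean with the SD (n = 3 per group). Control and DKO points are separate for Tfap2a and Snai1 and overlap for the other 8 genes.

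Tfap2a and Tfap2b encode AP-2 factors, which bind DNA as dimers; loss of Tfap2a in the mouse leaves the face and skull unfused, and Tfap2b is needed by several crest derivatives. Tfap2a (chromosome 13, 40713802 to 40738238) stood at 33.5, 37.3 and 43.4 CPM in DKO and at 57.2, 64.7 and 48.3 CPM in control libraries. Every DKO library was below every control, with 43.4 and 48.3 CPM as the nearest pair. The mean in DKO was 0.672 times the control mean (95% confidence interval 0.545 to 0.827), a log2 fold change of -0.57 (SE 0.13; edgeR test, adjusted p = 0.0599, unadjusted p = 0.00216). Its unadjusted p ranked 524 among the 14555 tested genes. Tfap2a was called lower in 4 of 13 alternative settings. These were no filter on low counts (edgeR adjusted p = 0.046, with 0.803% of genes called lower), DESeq2 (adjusted p = 0.00349, with 3.31% of genes called lower), the fit without DKO replicate 3 (edgeR adjusted p = 0.026) and 1 other given among the processing effects. Over all 13 the adjusted p lay between 0.00349 and 0.217 and the log2 fold change between -0.68 and -0.46. Of its exon length, 7.75%, 5.41% and 1.49% are shared with the antisense genes Gm26688, Gm47061 and Gm47067, and the part of their reads in the count was not tested.

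Tfap2b (chromosome 1, 19208908 to 19238845) stood at 111.9, 108.4 and 135 CPM in DKO and at 128.7, 137 and 153.9 CPM in control libraries. DKO libraries 1 and 2 were below every control, and DKO 3 lay between control 1 and control 2. Its difference came to -0.24 on the log2 scale (SE 0.11, edgeR adjusted p = 0.239).

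The Snail proteins are zinc-finger repressors that bind CAGGTG, a form of the E-box CANNTG, and Twist1 is a basic helix-loop-helix factor that binds E-boxes as a dimer and keeps cranial crest on a mesenchymal course. The 250 bases before the start of Snai1 (chr2:167537945-167538194, plus strand) and of Twist1 (chr12:33957421-33957670, plus strand), taken from RefSeq on GRCm38.p6, are printed for the specifier with the largest difference and the specifier with the smallest. Capitals mark CANNTG and the AP-2 palindrome GCCNNNGGC.
Snai1: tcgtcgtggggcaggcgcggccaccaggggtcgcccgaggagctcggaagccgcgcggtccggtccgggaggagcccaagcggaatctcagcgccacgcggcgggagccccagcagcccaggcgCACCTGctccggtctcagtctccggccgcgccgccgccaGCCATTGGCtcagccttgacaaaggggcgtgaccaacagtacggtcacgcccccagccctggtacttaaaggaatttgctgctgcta
Twist1: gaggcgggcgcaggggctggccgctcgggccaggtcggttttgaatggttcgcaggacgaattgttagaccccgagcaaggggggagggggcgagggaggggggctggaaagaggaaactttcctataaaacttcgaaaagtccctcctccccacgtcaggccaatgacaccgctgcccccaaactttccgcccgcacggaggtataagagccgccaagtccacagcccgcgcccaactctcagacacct
The Snai1 window held 1 CANNTG, which reads as CAGGTG on the opposite strand, 1 GCCNNNGGC and 1 ACAAAG, a core that SOX factors bind. The Twist1 window held none of these letters. Both strands were searched, and over 32851 mouse promoter windows of the same length 66.2% held CANNTG, 17.2% CAGGTG, 13.7% GCCNNNGGC and 16.5% ACAAAG. Both windows were rich in CpG, with 27 CpG and an observed over expected ratio of 0.882 at Snai1 and 18 CpG and a ratio of 0.74 at Twist1, against a median ratio of 0.373 over all windows. A match of letters is a description of the window and no measure of binding. Windows were also found for Sox8, Tfap2a, Tfap2b and Zic1, and none was matched for Sox9, Sox10, Snai2 and Ets1.

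Snai1 (chromosome 2, 167538195 to 167542814) stood at 107.9, 91.7 and 80.2 CPM in DKO and at 136, 165 and 125 CPM in control libraries. All 3 DKO libraries were below all 3 controls. The DKO mean was 0.657 times the control mean (95% confidence interval 0.53 to 0.815), a log2 fold change of -0.61 (SE 0.14; edgeR test, adjusted p = 0.0566, unadjusted p = 0.00199, rank 510 of 14555). Snai1 was called lower in 3 of 13 alternative settings, 2 of them no filter on low counts (edgeR adjusted p = 0.0483) and DESeq2 (adjusted p = 0.000981). The adjusted p over all 13 lay between 0.000981 and 0.176, and the log2 fold change between -0.72 and -0.48.

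**Figure D4:**
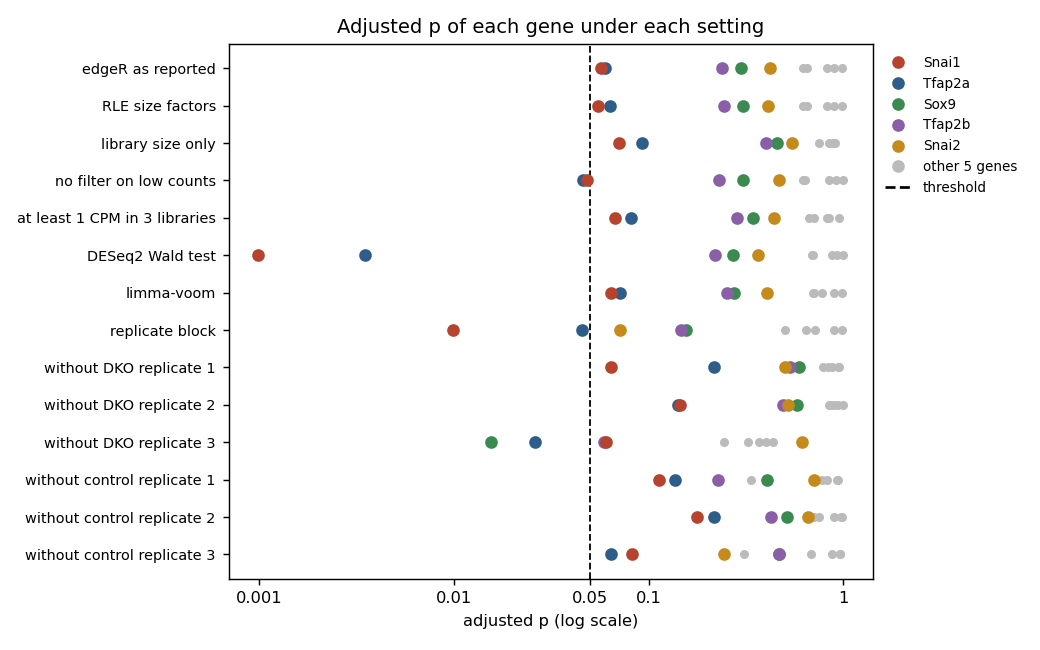
Adjusted p of each specifier (log axis) as reported and under the 13 alternative settings, with the threshold of 0.05 as a dashed line. Snai1 crosses the line in 3 settings, Tfap2a in 4 and Sox9 in 1, and the other 7 specifiers stay on the right of it in all of them.

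Snai2 (chromosome 16, 14705852 to 14709395), the paralog of Snai1, stood at 53.9, 52.1 and 35.5 CPM in DKO and at 70.05, 62.6 and 44.4 CPM in control libraries. Replicate 3 was the lowest of each group, and control 3 lay below DKO 1 and 2. DKO differed from control by a log2 fold change of -0.32 (95% confidence interval -0.82 to 0.17, SE 0.21, edgeR adjusted p = 0.417). Twist1 (chromosome 12, 33957671 to 33959831) stood at 379, 376 and 272 CPM in DKO and at 349, 363 and 311 CPM in control libraries. The DKO libraries held both the highest and the lowest value. The log2 fold change was 0.01 (SE 0.13, 95% confidence interval -0.30 to 0.31, edgeR adjusted p = 0.985).

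Ets1 (chromosome 9, 32636241 to 32757820) encodes an ETS factor that acts in the departure of cranial crest from the neural tube in the chick, and it is also expressed in endothelium. It stood at 70.6, 68.2 and 57.5 CPM in DKO and at 62.8, 69.4 and 59.9 CPM in control libraries. The groups overlapped across nearly their whole range. The log2 fold change was 0.03 (SE 0.10, 95% confidence interval -0.19 to 0.26, edgeR adjusted p = 0.891), the narrowest interval among the 10 specifiers. The 8 tested endothelial markers summed to 32.58, 43.29 and 34.8 CPM in DKO against 27.62, 18.44 and 20.34 CPM in controls, and all 8 had positive log2 fold changes. Tie1, an endothelial receptor, was the 1 called, at 8.05 ± 0.889 against 0.965 ± 0.146 CPM (SD, n = 3 each; log2 fold change 3.04, edgeR adjusted p = 0.000503). DKO was higher without overlap for 3 of the 8 markers (14.5% of all tested genes). Also 3 had an unadjusted edgeR p below 0.05 (20.9% in either direction). Both times they were Tie1, Pecam1 and Emcn. Pecam1 and Emcn had log2 fold changes of 0.79 and 0.99 (edgeR adjusted p = 0.111 and 0.124). DESeq2 called 2 of the 8 higher and limma-voom 1, beside 4.29% and 1.96% of all tested genes. Without Tie1, left out after its values were seen, the other 7 markers summed to 24.68, 34.29 and 27.56 CPM in DKO and to 26.53, 17.63 and 19.35 CPM in control libraries, and the groups overlapped. Endothelium is not of crest origin, and which of the sorted cells held the endothelial marker RNA was not tested. The part of endothelial RNA in the level of Ets1 was not tested.

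Zic1 (chromosome 9, 91358058 to 91365768) encodes a zinc-finger factor of the neural plate border and the dorsal neural tube. It stood at 39.7, 61.4 and 100.7 CPM in DKO and at 71.1, 58.1 and 100.7 CPM in control libraries. Replicate 3 was the highest of each group and level between the groups. The log2 fold change was -0.19 (SE 0.38, 95% confidence interval -1.13 to 0.76, edgeR adjusted p = 0.825), and the spread within groups, 37.2% of the mean, was above that of 99.1% of genes at or above the lowest specifier level. Zic1 shares 60 bp, 1.05% of its exon length, with its neighbour Zic4. The sum of 8 neural tube markers was 336.6, 286.8 and 593.6 CPM in DKO against 411.8, 339 and 592.6 CPM in controls, highest in replicate 3 of each group as Zic1 was. The part of neural tube RNA in the level of Zic1 was not tested.

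Specifiers split by replicate 3 in both groups, a pattern seen only after the values were known. Snai1, Snai2, Twist1 and Ets1 were lowest in replicate 3 of DKO and of control, while Sox9, Tfap2b and Zic1 were highest in it in both. Sox8, Sox10 and Tfap2a were highest in DKO 3 but not in control 3, where Sox10 and Tfap2a were lowest. Of all tested genes 19.3% were lowest and 17.8% highest in replicate 3 of both groups. Of 17 mesenchymal genes 11 were lowest in it, and of 8 neural tube markers 7 were highest. The part of these cell types in the split was not tested. Apart from Zic1, the largest spread within groups was that of Snai2, at 21.9% of the mean, and the smallest that of Ets1, at 9.14%; the median over the 8254 genes was 7.0%.

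**Figure D5:**
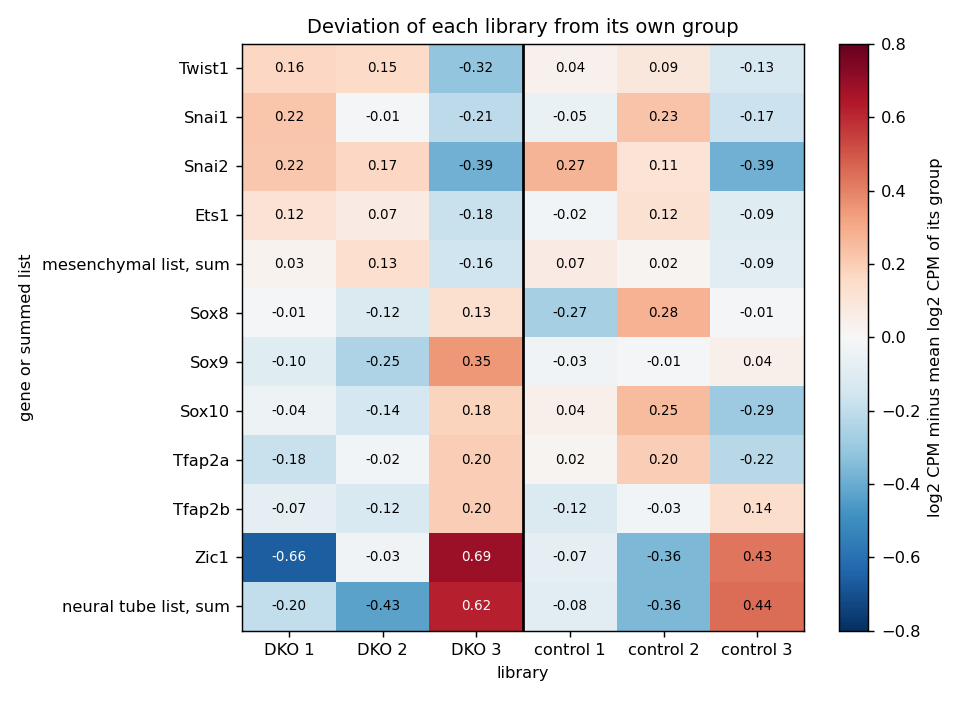
Difference of each library's log2 CPM from the mean of its own group, for the 10 specifiers and for summed marker lists; the vertical line separates DKO from control libraries. In replicate 3 of both groups Zic1 (0.69 and 0.43) and the neural tube sum (0.62 and 0.44) are above their group means.

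Ratios between paralogs compare 2 genes within a library and so do not depend on its scaling. The count of Sox9 was 1.498, 1.45 and 1.75 times that of Sox10 in DKO and 1.69, 1.48 and 2.24 times in control libraries. The Sox8 to Sox10 ratio was 0.316, 0.315 and 0.298 in DKO and 0.252, 0.319 and 0.379 in control libraries. Neither pair was separated by group. The Tfap2a to Tfap2b ratio was 0.299, 0.345 and 0.322 in DKO and 0.445, 0.472 and 0.314 in control libraries, with control 3 inside the DKO range. The Snai2 to Snai1 ratio was 0.50, 0.568 and 0.443 in DKO and 0.515, 0.379 and 0.355 in control libraries, also overlapping. On the log2 scale the differences, DKO minus control, were -0.19, -0.01, -0.33 and 0.29. Exact permutation tests, 2-sided over 3 against 3 libraries, gave p = 0.6, 0.8, 0.3 and 0.3 and adjusted p = 0.8, 0.8, 0.6 and 0.6 over the 4 ratios; the smallest p this design allows is 0.1.

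Genes that act around the specifiers were described from lists by role. Of 14 border genes, 18 other specifiers, 36 tested paralogs and 7 AP-2 cofactors, 0 were called, with median log2 fold changes of -0.10, -0.15, -0.13 and -0.11. The counts at an unadjusted p below 0.05 were 3, 2, 4 and 1, with limma-voom 0 in each list, and with DESeq2 1, 1, 1 and 0, all lower; some genes stand in more than 1 list. Over all tested genes, limma-voom called 2.68% and DESeq2 7.6%, beside the 20.9% at an unadjusted p below 0.05. With the replicate block, edgeR called 2, 0, 1 and 0 genes of these lists lower. Without DKO replicate 3, edgeR called 1, 1, 1 and 0 lower. These fits called 1.35% and 3.49% of all tested genes lower. Sox11, a SoxC gene abundant in progenitors, stood at 677 ± 69.0 CPM in DKO against 878 ± 10.5 CPM in controls (SD, n = 3 each; log2 fold change -0.38, edgeR adjusted p = 0.0685). Of 9 helix-loop-helix factors, among them dimer partners of Twist1, only Hand1 was called. Hand1, which patterns distal arch mesenchyme and the heart, fell from 17.4 ± 1.81 CPM in control to 9.19 ± 0.47 CPM in DKO libraries (SD, n = 3 each; log2 fold change -0.92, edgeR adjusted p = 0.00776). Without DKO replicate 1 its edgeR adjusted p was 0.0501.

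Genes known to act downstream were described in the same way. Of 16 tested Sox9 targets, mostly cartilage genes, 0 were called with edgeR or limma-voom and 1 with DESeq2. Without DKO replicate 3 edgeR called 1 lower, and 1 had an unadjusted edgeR p below 0.05. Over all tested genes DESeq2 called 7.6% and limma-voom 2.68%, and 20.9% had an unadjusted edgeR p below 0.05. Of the 16 targets 13 had negative values, beside 51.2% of all tested genes. Among the 8254 genes at or above the lowest specifier level, 62.2% were negative. Col2a1, the main cartilage collagen, stood at 577.6 ± 22.1 CPM in DKO against 672.5 ± 26.8 CPM in controls (SD, n = 3 each; edgeR adjusted p = 0.153). Of 19 tested Sox10 targets 1 was called: Tyr, the rate-limiting enzyme of melanin synthesis, rose, with 2.56 ± 0.552 CPM in DKO against 0.775 ± 0.316 CPM (SD, n = 3; log2 fold change 1.70, edgeR adjusted p = 0.0392). The 5 tested melanocyte markers, which include Tyr, summed to 50.28 to 68.57 CPM in DKO against 60.23 to 61.87 CPM in controls, most of it Kit; without Kit the sums were 10.86 to 19.96 and 12.75 to 17.27 CPM. Singled out after their values were seen, Mitf, the master regulator of pigment cells, had a log2 fold change of 0.53 with no overlap (edgeR adjusted p = 0.181), and the pigment genes Dct and Pmel had -0.36 and -0.48 (edgeR adjusted p = 0.665 and 0.395). Glial markers summed to 271.8 to 282.3 CPM in DKO against 290.9 to 291.4 CPM in controls, with 0 of 8 called (2 at an unadjusted p below 0.05, 1 with DESeq2, 0 with limma-voom). Of 10 neuronal markers 9 had negative values (median -0.38 on the log2 scale), beside 51.2% of all tested genes. At an unadjusted edgeR p below 0.05 there were 4, beside 20.9% of all tested genes in either direction. DESeq2 called 2 of the markers lower, limma-voom 1, and edgeR 4 without DKO replicate 3. Of all tested genes these fits called 3.31%, 0.715% and 3.49% lower. The neuronal markers summed to 1178, 1152 and 1296 CPM in DKO and 1373, 1244 and 1565 CPM in control libraries, with DKO 3 above control 2. With edgeR on all 6 libraries 1 was called: Pou4f1, a sensory neuron factor, fell (42.6 ± 3.25 against 58.4 ± 3.23 CPM, SD, n = 3 each; log2 fold change -0.45, edgeR adjusted p = 0.0306). Tyr and Pou4f1 were not called without DKO replicate 1 or 2 or any 1 control, where the edgeR adjusted p was 0.063 to 0.138 for Tyr and 0.0784 to 0.137 for Pou4f1. The Snail and Twist1 side gave 0 calls among 16 tested epithelial genes, 17 mesenchymal genes and 16 migration genes, whose median log2 fold changes were -0.12, -0.17 and -0.14. At an unadjusted p below 0.05 there were 2, 6 and 3 genes, with DESeq2 0, 0 and 1, and with limma-voom 0 in each. Without DKO replicate 3, edgeR called 1, 1 and 0 lower. Against 20.9% of all tested genes in either direction, 6 of 17 mesenchymal genes is a larger share, 3 of 16 is near it and 2 of 16 is smaller. Of the 6, Rhob was higher in DKO (log2 fold change 0.28) and Cdh2, Cdh6, Zeb1, Itgb1 and Prrx1 were lower. The 20.9% was not matched to the level of these lists. Fn1, the matrix protein fibronectin, had a log2 fold change of -0.16 (edgeR adjusted p = 0.455). Cldn1, a tight junction protein, had a log2 fold change of 0.30 (edgeR adjusted p = 0.626).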

How the data were processed

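RNA was counted in 3 DKO and 3 control libraries. The values deposited by the authors are raw counts for each gene symbol. The submitters' processing notes name the genome build mm10 and the tools STAR 2.7.10a, Picard and Trim Galore; which program counted reads, with which strand setting and annotation, and whether duplicates were removed is not given in the sources used here. Columns headed WT were matched to the control samples. Counts were tested with edgeR 4.0.16 in R 4.3.3: filterByExpr (minimum count 10, total 15), TMM scaling, robust quasi-likelihood test with group only, Benjamini-Hochberg over 14555 genes, called at an adjusted p below 0.05. SE is the log2 fold change divided by the root of F. The test was tried on simulated data first. Exon lengths are from GENCODE vM21, positions and promoters from RefSeq GRCm38.p6. Alternatives were RLE, library size only, no filter, 1 CPM in 3 libraries, DESeq2 1.42.0, limma-voom 3.58.1, a replicate block and leaving out each library.

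The specifiers and all lists were chosen with earlier results of these data known. Named genes are the 10 specifiers, Ehmt1 and Ehmt2, and, per list, up to 4 called genes or else the 2 most abundant. Of these the text gives the ones closest to the specifiers' roles. Pecam1, Emcn, Kit, Mitf, Dct, Pmel, Rhob, Cdh2, Cdh6, Zeb1, Itgb1 and Prrx1 were named outside this rule, after their values were seen. Ratios used counts plus 0.5.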

Additional observations from a re-analysis of the deposited data

How the results depend on the processing

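Under 13 alternatives per specifier, 111 of 130 values kept their direction and their side of the threshold, 8 passed the threshold and 11 changed sign. The number of specifiers called higher was 0 throughout. The number called lower was 0 as reported, 2 with no filter, 2 with DESeq2, 2 with the replicate block, and 0 to 2 when 1 library was left out (Sox9 and Tfap2a without DKO replicate 3). Their median log2 fold change lay between -0.285 and -0.144 over the fits that left out 1 library, and was -0.133 with library size only, where the median of all tested genes moved to 0.0728. Over all genes, 319 higher and 119 lower calls became 624 and 482 with DESeq2, and 110 to 597 and 21 to 509 when 1 library was left out, the most without DKO replicate 3. With library size only, 416 were higher and 80 lower. The cause was not tested.

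Same-numbered DKO and control libraries had correlations of 0.0919, -0.0629 and 0.273 in their deviations from the group means. Pairs with different numbers ran from -0.379 to 0.405. These values cannot show whether same-numbered libraries share a litter, batch or day, and the labels do not say, so the main fit has no block. With the replicate block, 423 genes were higher and 196 lower, and Snai1 (edgeR adjusted p = 0.00988) and Tfap2a (edgeR adjusted p = 0.0456) were called lower. For the ratios, such as Sox9 to Sox10 at -0.185, the mean paired difference equals the difference of group means by construction.

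Values near 0 changed sign. When 1 library was left out, the log2 fold change ran from -0.257 to 0.0164 for Sox8, -0.262 to 0.0106 for Sox10, -0.0732 to 0.147 for Twist1, -0.0266 to 0.116 for Ets1 and -0.601 to 0.0794 for Zic1. It ran from -0.191 to 0.105 for Msx1, -0.0931 to 0.232 for Hes1, -0.0311 to 0.0157 for Col9a1 and -0.175 to 0.0941 for Krt18. The log2 ratio of Sox8 to Sox10 ran from -0.166 to 0.127. Twist1 was at -0.00627 with limma-voom and -0.00703 with the replicate block. Library size only gave 0.00147 for Ep300, 0.074 for Col9a1 and 0.0544 for Krt18, the 1 CPM minimum 0.00984 for Col9a1, and limma-voom 0.0247 for Krt18. Of the called list genes, Hand1 lost its call without DKO replicate 1 (edgeR adjusted p = 0.0501), and Tyr and Pou4f1 without DKO replicate 1 or 2 or any 1 control. The fewest counts behind any specifier value were 652, for Sox8 in control replicate 2.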
